A study of Mus musculus with 6 samples.

Results

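The genes described here were 10 members of the TNF receptor superfamily in mouse splenic B cells: Tnfrsf11a, Tnfrsf13b, Fas, Cd40, Tnfrsf13c, Tnfrsf1b, Tnfrsf18, Tnfrsf1a, Tnfrsf9 and Cd27. They were taken by gene symbol from a table of 46316 symbols, and each gene was represented by its transcript row with the highest mean count. All 10 were found in the table. Counts were high enough to test 7 of them, among 13863 genes tested in all.

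RNA was sequenced from 6 samples of cultured naive B cells, purified from the spleens of mice of WT genotype with a B cell isolation kit. In 3 samples the cells received IL-4 and bryostatin 1, and in the other 3 they received IL-4. The medium of all 6 samples also held an anti-mouse CD40 antibody at 500 ng/mL, with IL-4 at 5 ng/mL, and bryostatin 1, a macrocyclic lactone that activates protein kinase C (PKC), was used at 0.8 nM. RNA was taken after 48 hours. There was no culture without anti-CD40 antibody or without IL-4, so every value for a TNF receptor gene here comes from cells in which CD40 was already engaged. The mouse strain is not given for these cells, nor is the origin of the replicates, which could be mice, cultures or aliquots. The p-values therefore cover the spread from sample to sample, and part or all of that spread may be technical. The comparison asks how a PKC activator altered the transcripts of B cells driven by IL-4 and CD40.

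TNF receptor superfamily proteins are cell-surface receptors for trimeric ligands. One branch carries no death domain and recruits TRAF adaptors, through which the receptors turn on the canonical and alternative NF-κB pathways. The other branch carries a cytoplasmic death domain that can bind FADD or TRADD and lead to caspase-8 activation. In B cells, CD40 receives T cell help, the BAFF receptor (encoded by Tnfrsf13c) carries the survival signal of follicular cells, TACI (encoded by Tnfrsf13b) binds BAFF and APRIL and takes part in class switching to IgA, and Fas limits activated cells.

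The sequences just before the start sites of 3 members are shown as examples of the changes described below: Tnfrsf11a, with the largest rise among the members, Fas, which rose and holds a motif match, and Tnfrsf13c, which fell. They are from RefSeq on GRCm38.p6, chr1:105780473-105780672 (plus strand) for Tnfrsf11a, chr19:34290409-34290646 (plus strand) for Fas and chr15:82224381-82224630 (minus strand) for Tnfrsf13c, each ending before the first annotated transcript of the gene, which for Tnfrsf11a and Fas begins upstream of the start site from which distances are counted. Capitals mark a match to the AP-1 motif TGANTCA.
Tnfrsf11a: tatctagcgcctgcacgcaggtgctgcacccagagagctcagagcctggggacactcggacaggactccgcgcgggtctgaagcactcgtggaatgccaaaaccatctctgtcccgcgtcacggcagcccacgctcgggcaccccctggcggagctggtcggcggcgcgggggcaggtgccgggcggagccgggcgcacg
Fas: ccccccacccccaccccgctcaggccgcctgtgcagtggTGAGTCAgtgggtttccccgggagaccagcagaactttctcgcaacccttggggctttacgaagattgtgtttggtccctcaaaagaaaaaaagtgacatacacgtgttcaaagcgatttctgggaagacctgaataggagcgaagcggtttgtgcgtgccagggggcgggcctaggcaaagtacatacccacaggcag
Tnfrsf13c: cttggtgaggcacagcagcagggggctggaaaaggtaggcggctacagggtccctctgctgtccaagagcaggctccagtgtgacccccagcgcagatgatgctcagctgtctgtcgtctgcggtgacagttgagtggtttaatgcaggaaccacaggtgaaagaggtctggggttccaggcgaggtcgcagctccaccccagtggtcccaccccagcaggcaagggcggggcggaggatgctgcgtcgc

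Promoter windows of 300 bases, 250 before to 50 after an annotated start, were matched for the 9 members other than Cd40, with 10 windows in all because Tnfrsf9 had 2 starts. Both strands were searched for 3 motifs, namely AP-1 (TGANTCA), the NF-κB consensus and ETS (CCGGAAGT). AP-1 letters were found 211 bases before the start of Fas and 15 bases before the second start of Tnfrsf9, which lies inside that gene. The second Tnfrsf9 window also held the NF-κB consensus, in a pair of overlapping matches 43 and 42 bases before the start. The other 8 windows held none of the 3 motifs, including those of Tnfrsf11a and Tnfrsf13c printed above. The Tnfrsf13b window also lay inside its gene, after the start of the first annotated transcript. The sequence before that transcript was therefore not searched. Among all 32851 RefSeq mouse promoter windows, 7.81% held AP-1, 4.51% held the NF-κB consensus and 3.89% held ETS. The Tnfrsf11a stretch was 71% G and C with 22 CpG dinucleotides, against 63.2% and 10 for that of Tnfrsf13c.

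Library totals, with 1 row per gene, were 19959971 to 24896427 counts in the samples with bryostatin 1 and 20564293 to 22219354 counts in those with IL-4 alone. Levels are given as CPM, the count scaled to a common library size, and fold changes are from edgeR's quasi-likelihood test, called at a Benjamini-Hochberg adjusted p under 0.05. The B cell markers were present, with all 10 listed genes above 10 counts in each library and a summed level of 6982 to 7456 CPM with bryostatin 1 and 8480 to 8778 CPM with IL-4. The spread between replicates was small (biological coefficient of variation 3.89%), and 58.2% of all genes tested were called. The genes were measured in bulk, so fewer cells of a type and less RNA per cell cannot be told apart.

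All 7 testable members differed between the groups, with 3 higher and 4 lower in the presence of bryostatin 1. Over all genes tested, 30% were called higher and 28.1% lower, and the members' calls are to be read against these shares. The groups did not overlap for any of the 7 members, nor for 63.4% of all genes. The median log2 fold change of the 7 was -0.43, against 0.00086 for all genes, and the median size was 0.58, against 0.25. The members and the lists of related genes below were chosen with earlier results of these data known. Their medians and counts of calls therefore describe the chosen genes and are no test against all genes. The size of change set 1 member apart from the rest, namely Tnfrsf11a. A call together with a log2 fold change above 1 or below -1 was made for 10.6% of all genes.

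**Figure D1:**
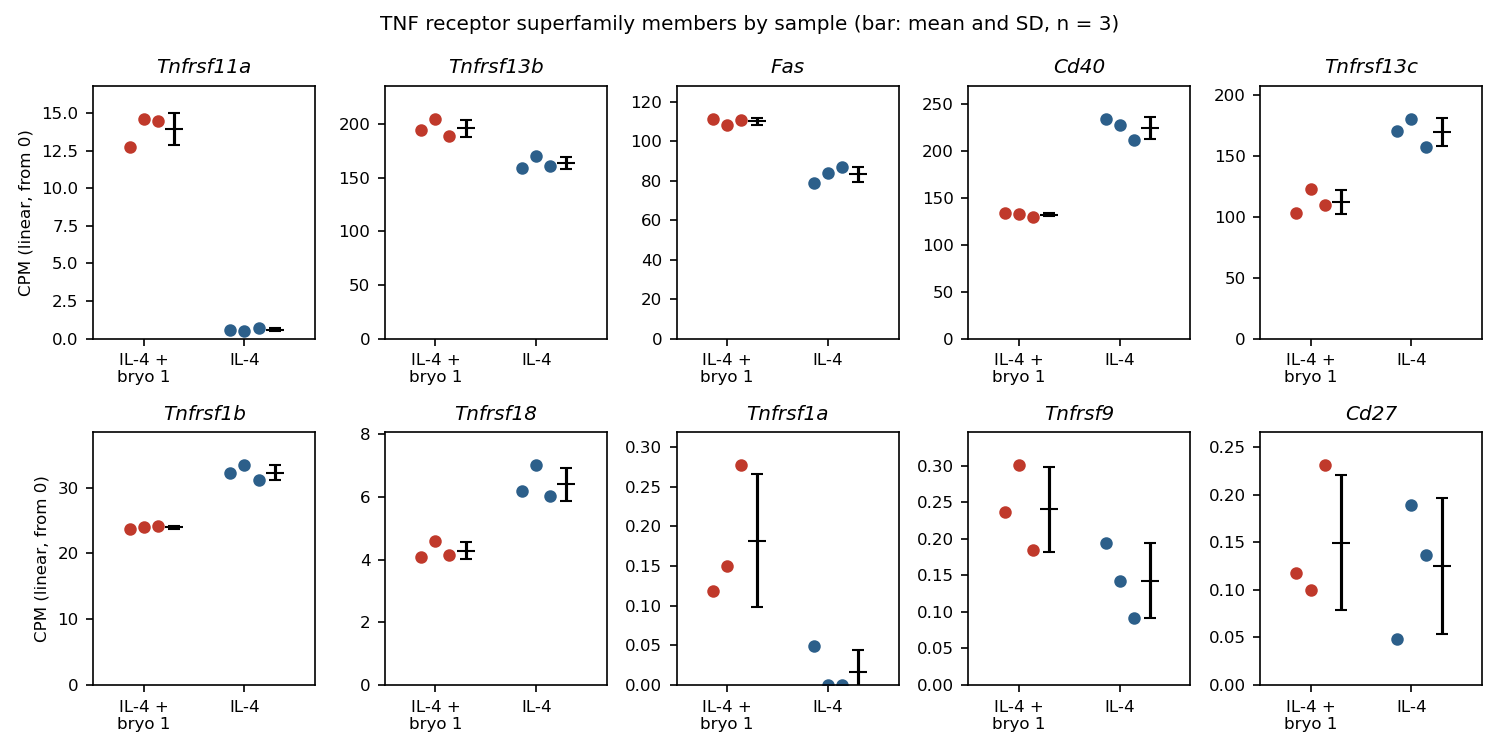
Level of each of the 10 members in each sample, in CPM on linear axes from 0, with the IL-4 + bryostatin 1 samples (red) left of the IL-4 samples (blue) and black bars for the mean and SD (n = 3). Tnfrsf11a is near 14 CPM with bryostatin 1 and near 0.6 CPM with IL-4, while Tnfrsf1a, Tnfrsf9 and Cd27 stay at or below 0.30 CPM in every sample.

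Tnfrsf11a encodes RANK, the receptor for RANK ligand, best known for osteoclast formation and lymph node development. It was at 12.7, 14.6 and 14.5 CPM in the samples with IL-4 and bryostatin 1, against 0.584, 0.521 and 0.686 CPM in the samples with IL-4. These levels rest on 323, 292 and 314 counts with bryostatin 1 and on 12, 11 and 15 counts with IL-4. All 3 treated samples stood far above all 3 IL-4 samples. The log2 fold change was 4.53 ± 0.15 (standard error, edgeR adjusted p = 3.58e-14), or 23.1-fold, the 42nd largest rise among all genes tested. The mean level was 13.9 ± 1.06 CPM with bryostatin 1 and 0.597 ± 0.083 CPM with IL-4 (SD, n = 3 each).

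RANK is also expressed by myeloid cells, so the markers of such cells are given beside it. The summed level of 10 monocyte, macrophage and dendritic cell markers was 37.3 to 38.9 CPM with bryostatin 1 and 16.7 to 20.3 CPM with IL-4. Of the 10, 6 could be tested. Adgre1 (log2 2.64 ± 0.11), Itgax (log2 2.16 ± 0.30) and Cd68 (log2 0.29 ± 0.09, edgeR adjusted p = 0.014) were higher. Flt3 was lower (log2 -1.24 ± 0.21). Itgax had 15, 22 and 7 counts with IL-4 and passed the filter on low counts only through its bryostatin 1 samples. Csf1r, a defining macrophage gene, had 5, 3 and 8 counts with bryostatin 1 against 12, 11 and 4 counts with IL-4. Fcgr1 had at most 2 counts in any library. Siglech had 6, 4 and 4 counts with bryostatin 1 against 1, 0 and 0 counts with IL-4, without overlap. Xcr1 had 4, 7 and 11 counts with bryostatin 1 against 5, 8 and 5 counts with IL-4, and the groups overlapped. Whether other cells had a part in the Tnfrsf11a level was not tested.

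Tnfrsf13b and Tnfrsf13c, which encode receptors for BAFF, moved in opposite directions. TACI mRNA was at 195, 205 and 189 CPM with bryostatin 1, against 160, 171 and 162 CPM with IL-4. Each treated sample was above each IL-4 sample, by a small margin. The rise was 1.20-fold (log2 0.26 ± 0.04, edgeR adjusted p = 2.12e-05). The mRNA of the BAFF receptor, Tnfrsf13c, was at 103.3, 122.8 and 109.9 CPM with bryostatin 1, against 170, 180 and 157 CPM with IL-4. It was lower in every treated sample and averaged 66.0% of the IL-4 level (log2 -0.60 ± 0.06, edgeR adjusted p = 4.84e-08).

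The relation between the receptors for BAFF was also read within each library, where scaling has no influence. There were 1.89, 1.67 and 1.72 Tnfrsf13b counts per Tnfrsf13c count with bryostatin 1, against 0.936, 0.948 and 1.03 with IL-4. The ratio was higher in each treated sample than in any IL-4 sample. It is not corrected for transcript length, so it compares the groups and not the levels of these genes. The mean log2 ratio was 0.86 higher with bryostatin 1, with a two-sided exact permutation p of 0.1, the smallest that 3 against 3 samples allow. Because Tnfrsf13b was higher and Tnfrsf13c lower in every treated sample, the groups could not overlap in this ratio. Its p was thus fixed by the changes given above, and the ratio adds no separate test. Of 6 plasma cell markers 5 could be tested, and 4 were higher, namely Prdm1 (3.20-fold), Jchain (2.43-fold), Sdc1 (2.04-fold) and Irf4 (1.47-fold), while Xbp1 was at 58.8% of the IL-4 mean. Their part in the shift of this ratio was not tested. Tnfrsf17, which encodes BCMA, the plasma cell receptor for the same ligands, had at most 2 counts in any library.

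Among the death domain receptors, Fas rose. It was at 111, 108 and 111 CPM with bryostatin 1, against 79.0, 83.7 and 86.9 CPM with IL-4. The treated samples lay close together and above all IL-4 samples. Fas was 1.32-fold higher (log2 0.40 ± 0.04, edgeR adjusted p = 1.43e-07). A shorter annotated form, transcript variant 2, was counted at 24.7%, 23.5% and 26.0% of the highest Fas row with bryostatin 1 and at 24.2%, 25.0% and 22.2% with IL-4. The ranges of this share overlapped (two-sided exact permutation p = 0.5), and since rows of a gene appear to share reads it is no measure of isoform use.

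Tnfrsf1a, the death domain receptor for TNF that most cell types carry, was barely detected. It had 3, 3 and 6 counts with bryostatin 1, against 1, 0 and 0 counts with IL-4, and it did not pass the filter. The pooled counts of 12 against 1 give a rate ratio of 11.4 with an exact 95% interval of 1.68 to 486, which covers counting error only. With no filter on low counts, edgeR gave an adjusted p of 0.0207 for this gene. The level remained at the limit of detection in both groups.

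Tnfrsf1b, which encodes the TNF receptor without a death domain and is typical of lymphocytes, was well measured. It was at 23.7, 24.0 and 24.2 CPM with bryostatin 1, against 32.3, 33.4 and 31.1 CPM with IL-4. Every treated sample was lower, at 74.2% of the IL-4 mean (log2 -0.43 ± 0.06, edgeR adjusted p = 4.24e-06). Of all counts of both TNF receptor genes, not corrected for length, Tnfrsf1a had 12 of 1616 with bryostatin 1, or 0.743% (exact Clopper-Pearson 95% interval 0.384 to 1.29), and 1 of 2050 with IL-4, or 0.0488% (0.00124 to 0.271). The intervals of these shares also cover counting error only. Nearly all of the counts were Tnfrsf1b in both groups.

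Cd40, the receptor that the culture antibody binds, fell. Its level was 134, 133 and 130 CPM with bryostatin 1, against 234, 227 and 211 CPM with IL-4. The groups were far apart relative to their spread, and the treated mean was 58.9% of the IL-4 mean (132 ± 1.91 and 224 ± 11.6 CPM, SD, n = 3 each). The log2 fold change was -0.76 ± 0.04 (edgeR adjusted p = 1.67e-11), the largest fall among the members. Cd40 had 7 transcript rows, all within 99.3% to 100% of the highest, so the choice of row had little weight.

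The remaining members are costimulatory receptors best known from T cells. Tnfrsf18, which encodes GITR, was at 4.10, 4.61 and 4.16 CPM with bryostatin 1, against 6.18, 7.01 and 6.03 CPM with IL-4. It was lower in each treated sample, at 66.8% of the IL-4 mean (log2 -0.58 ± 0.12, edgeR adjusted p = 5.43e-04). In GENCODE, 414 of the 1524 exonic bases of Tnfrsf18 are shared with the antisense gene Gm16008, which had at most 4 counts in any library. The strand setting of the counting was not stated.

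Tnfrsf9, which encodes 4-1BB, and Cd27, the receptor for CD70 and in humans a marker of memory B cells, were both at the limit of detection. Tnfrsf9 had 6, 6 and 4 counts with bryostatin 1, against 4, 3 and 2 counts with IL-4 (rate ratio 1.69, exact 95% interval 0.70 to 4.33). Cd27 had 3, 2 and 5 counts with bryostatin 1, against 1, 4 and 3 counts with IL-4 (rate ratio 1.19, interval 0.42 to 3.46). Both intervals are from pooled counts and cover counting error only. The groups overlapped for both genes and no difference was detectable at this depth. The edgeR adjusted p without a filter was 0.454 for Tnfrsf9 and 0.843 for Cd27.

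The summed level of 10 T cell markers was 4.86 to 5.79 CPM with bryostatin 1 and 4.64 to 5.26 CPM with IL-4. Within this list, Trac was higher (48, 30 and 22 counts with bryostatin 1, 17, 20 and 10 with IL-4, log2 1.00 ± 0.30, edgeR adjusted p = 0.00814). Trac passed the filter on low counts only through its bryostatin 1 samples, so this call was favoured by the filter. Lat was lower (log2 -0.49 ± 0.16), and Cd8a had 6, 3 and 5 counts with bryostatin 1 against 1, 1 and 0 with IL-4. Some T cell genes were thus higher beside bryostatin 1 although the sum was close. Foxp3, the defining factor of regulatory T cells, a cell type with high GITR, had 1 count in each treated library and 3, 0 and 2 counts with IL-4. Of the other markers of these cells, Ctla4 had 8, 13 and 12 counts with bryostatin 1 against 2, 6 and 3 with IL-4 (rate ratio 2.84, exact 95% interval 1.40 to 6.24), and Il2ra, which activated B cells also express, was 39.8-fold higher. The Ctla4 interval is from pooled counts and covers counting error only. The Cd3d, Cd3e and Cd3g counts summed to 13, 7 and 11 with bryostatin 1, against 2, 1 and 6 with IL-4. The part of T cells in the Tnfrsf18, Tnfrsf9 and Cd27 levels was not tested.

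**Figure D2:**
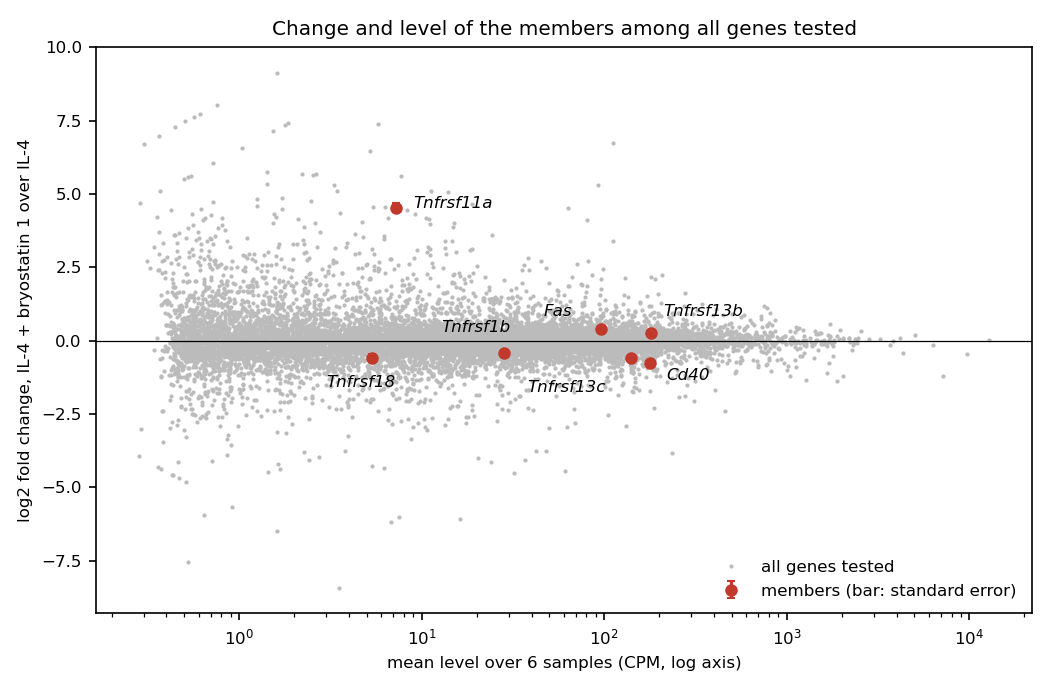
Log2 fold change of IL-4 + bryostatin 1 over IL-4 (vertical axis) against the mean level over 6 samples in CPM (horizontal log axis) for all 13863 genes tested (grey) and the 7 tested members (red, bars for the standard error, mostly smaller than the points). Tnfrsf11a stands at 4.53, while the other 6 members lie between -0.76 and 0.40 amid genes of like level.

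Levels per kilobase of transcript, which allow a comparison between genes, were computed for the 6 members whose deposited RefSeq transcript has a GENCODE M21 model of the same version. On this scale Fas was at 73.7 ± 1.30 CPM per kb with bryostatin 1 and 55.7 ± 2.69 with IL-4, and Cd40 at 44.1 ± 0.587 with bryostatin 1 and 74.8 ± 3.87 with IL-4 (SD, n = 3 each). Fas therefore stood above Cd40 in the treated samples and below it in the IL-4 samples. This order used the length of transcript variant 1 for Cd40 and for Fas, and both genes have variants of other lengths. Tnfrsf1b followed at 6.27 ± 0.0727 CPM per kb with bryostatin 1 and 8.45 ± 0.295 with IL-4. Cd27, Tnfrsf9 and Tnfrsf1a came last, at 0.084 to 0.18 CPM per kb with bryostatin 1 and 0.0075 to 0.15 with IL-4, and within either group the sample ranges of Cd27 and Tnfrsf9 overlapped.

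Of 18 further TNF receptor superfamily genes, 12 could be tested, of which 4 were higher and 4 lower, against 30% and 28.1% of all genes tested (median log2 fold change 0.13). Tnfrsf10b, the mouse death receptor for TRAIL, was at 34.0, 32.3 and 35.9 CPM with bryostatin 1, against 10.7, 11.3 and 10.9 CPM with IL-4, a 3.11-fold rise (log2 1.64 ± 0.07, edgeR adjusted p = 6.47e-13). Tnfrsf19, which encodes the orphan receptor TROY, rose 5.58-fold to a mean of 7.56 CPM, against 1.35 CPM with IL-4, and Tnfrsf26 rose 2.58-fold. Those that fell included Tnfrsf14, which encodes HVEM, the receptor for LIGHT and for BTLA. Its mean was 36.2 CPM with bryostatin 1, against 63.2 CPM with IL-4 (log2 -0.80 ± 0.05, edgeR adjusted p = 4.32e-10). Tnfrsf21, which encodes the death receptor DR6, was also lower (log2 -0.60 ± 0.10, adjusted p = 7.19e-05). The other called genes, named after their values were seen, were Ngfr, higher at a mean of 0.94 CPM with bryostatin 1 against 0.127 CPM with IL-4 (log2 2.84 ± 0.55), Relt, lower (log2 -0.30 ± 0.08), and Tnfrsf8, lower (log2 -0.26 ± 0.09). Ngfr had 1, 7 and 0 counts with IL-4, and its log2 fold change was 5.00 without replicate 2 of IL-4 and 2.25 without replicate 3. It passed the filter on low counts only through its bryostatin 1 samples. When at least 10 counts were asked of each library, 3 of the further receptor genes were higher and 4 lower. The Tnfrsf8 call was lost without replicate 1 or 2 of IL-4 + bryostatin 1 (adjusted p = 0.0904 and 0.0544) without replicate 3 of IL-4 (adjusted p = 0.124) and when all Tnfrsf8 rows were added up (adjusted p = 0.0648). The 6 untested genes had at most 6 counts in any library.

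Ligands for the members are listed for the same cells, since B cells can carry both sides of a pair. Of 11 ligand genes, 7 could be tested, of which 5 were higher and 1 lower, against 30% and 28.1% of all genes tested (median log2 fold change 0.56). When at least 10 counts were asked of each library, 4 were higher and 1 lower. The largest rise was that of Cd70, the ligand of CD27. It was at 6.23, 6.41 and 5.54 CPM with bryostatin 1, against 0.584, 0.663 and 0.777 CPM with IL-4, all treated samples being far higher. The rise was 8.89-fold (log2 3.15 ± 0.18, edgeR adjusted p = 5.86e-11). The summed Cd3d, Cd3e and Cd3g counts came to 5.47% to 9.17% of the Cd70 counts with bryostatin 1 and to 7.14% to 35.3% with IL-4, and the part of T cells in this level was not tested.

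Tnfsf9, which encodes the ligand of 4-1BB, was at 15.2, 15.5 and 14.8 CPM with bryostatin 1, against 3.46, 3.60 and 3.52 CPM with IL-4. The groups were widely separated (4.30-fold, log2 2.10 ± 0.10, edgeR adjusted p = 2.22e-12). Tnfsf18, which encodes the ligand of GITR, rested on few counts, 25, 21 and 21 with bryostatin 1 against 4, 3 and 12 with IL-4, and was higher in each treated sample (log2 1.72 ± 0.38, edgeR adjusted p = 8.51e-04). Without replicate 3 of IL-4 its log2 fold change was 2.53. Tnfsf18 passed the filter on low counts only through its bryostatin 1 samples, so its place among the higher ligands was favoured by the filter. For the pairs of CD70 with CD27 and of 4-1BB ligand with 4-1BB, the ligand mRNA rose while the receptor mRNA remained at the limit of detection in these cells.

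The genes for TNF and the lymphotoxins changed less. Lta, which encodes lymphotoxin alpha, was at 31.0, 30.0 and 31.3 CPM with bryostatin 1, against 20.02, 21.35 and 21.43 CPM with IL-4, without overlap (log2 0.56 ± 0.06, edgeR adjusted p = 3.10e-07). Tnf was at 7.25, 6.31 and 6.37 CPM with bryostatin 1, against 5.36, 4.64 and 5.30 CPM with IL-4. It was higher in each treated sample (log2 0.39 ± 0.12, edgeR adjusted p = 0.00936), but the adjusted p was 0.0568 without replicate 1 of IL-4 + bryostatin 1 and 0.052 without replicate 2 of IL-4. Ltb, whose product anchors lymphotoxin alpha to the membrane, was listed with the ligands as the partner of lymphotoxin alpha, not as a TNF receptor ligand of its own. It was the ligand gene called lower, at 123.2, 131.9 and 128.9 CPM with bryostatin 1 against 152, 167 and 156 CPM with IL-4 (log2 -0.31 ± 0.04, edgeR adjusted p = 5.47e-06).

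Tnfsf11, which encodes RANK ligand, did not pass the test. It had 18, 15 and 9 counts with bryostatin 1, against 14, 18 and 28 counts with IL-4, and the groups overlapped (log2 -0.59 ± 0.32, edgeR adjusted p = 0.128). The ligands of CD40, of Fas and of TACI and the BAFF receptor had few counts in all libraries. Cd40lg had 2, 1 and 2 counts with bryostatin 1 and 0 in each IL-4 library, and Fasl had 1, 5 and 6 counts with bryostatin 1 and 1, 2 and 1 with IL-4. Tnfsf13, which encodes APRIL, had 0, 0 and 1 counts with bryostatin 1 and 1, 3 and 1 with IL-4, and Tnfsf13b, which encodes BAFF, had 5, 3 and 1 with bryostatin 1 and 2, 1 and 1 with IL-4. None of these 4 could be tested.

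**Figure D3:**
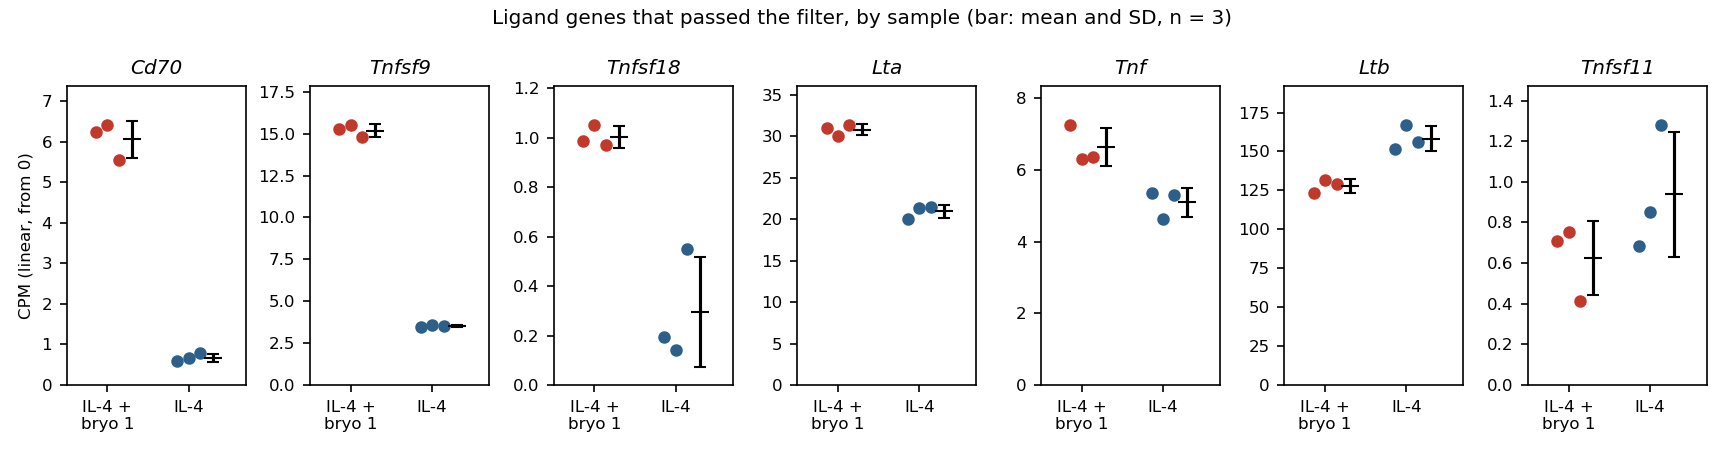
Level of the 7 tested ligand genes in each sample, in CPM on linear axes from 0, with IL-4 + bryostatin 1 (red) left of IL-4 (blue) and black bars for the mean and SD (n = 3). Cd70 and Tnfsf9 are the most widely separated, Tnfsf11 overlaps between the groups, and Ltb is lower with bryostatin 1.

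Downstream of the receptors, 21 genes for TRAF proteins, death domain adaptors and ubiquitin enzymes were all measured. In this list 15 were lower, 2 were higher and 4 were not called, where 28.1% of all genes tested were lower and 30% higher (median log2 fold change -0.22). Tradd, named after its values were seen, was among the 15 (log2 -0.16 ± 0.07, edgeR adjusted p = 0.0421), and its call was lost in 9 of 15 alternatives. Traf3, whose product holds the alternative NF-κB pathway in check downstream of CD40 and the BAFF receptor, was at 53.7, 48.6 and 50.2 CPM with bryostatin 1, against 111, 108 and 96.4 CPM with IL-4. It fell to 48.4% of the IL-4 mean in the treated samples (log2 -1.05 ± 0.05, edgeR adjusted p = 9.99e-12). Its partners Birc2 and Birc3, which encode the ubiquitin ligases cIAP1 and cIAP2, were at 58.1% and 63.6% of the IL-4 mean. Traf3ip2, which encodes an adaptor of the IL-17 receptor, was at 66.0%, and Fadd, which encodes the adaptor of Fas, at 66.6%. Map3k14, which encodes the kinase NIK that TRAF3 marks for degradation, had a log2 fold change of 0.00 ± 0.05 (edgeR adjusted p = 0.983). The 2 that rose, named after their values were seen like Map3k14, were Traf6 (log2 0.48 ± 0.04) and Tnfaip3 (log2 0.45 ± 0.04), which encodes the NF-κB inhibitor A20.

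All 14 genes of NF-κB subunits, IκB proteins and their kinases were measured, with 6 higher, 7 lower and 1 not called, where 30% of all genes tested were higher and 28.1% lower (median log2 fold change -0.12). Nfkb2, the precursor of the alternative pathway subunit p52, was at 759, 788 and 775 CPM with bryostatin 1, against 505, 518 and 514 CPM with IL-4 (log2 0.59 ± 0.04, edgeR adjusted p = 7.14e-11). Its usual partner Relb was lower in all treated samples, with a mean of 60.6 CPM with bryostatin 1 against 96.4 CPM with IL-4 (log2 -0.67 ± 0.04, adjusted p = 8.48e-11). The largest falls were those of the atypical IκB genes Nfkbid and Bcl3. Nfkbid was at 6.58, 6.11 and 6.09 CPM with bryostatin 1, against 36.4, 23.2 and 19.5 CPM with IL-4 (log2 -2.06 ± 0.18), the IL-4 samples differing widely among themselves. Bcl3 averaged 11.9 CPM with bryostatin 1 and 43.3 CPM with IL-4 (log2 -1.86 ± 0.07), and Nfkbie was at 69.4% of the IL-4 mean.

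**Figure D4:**
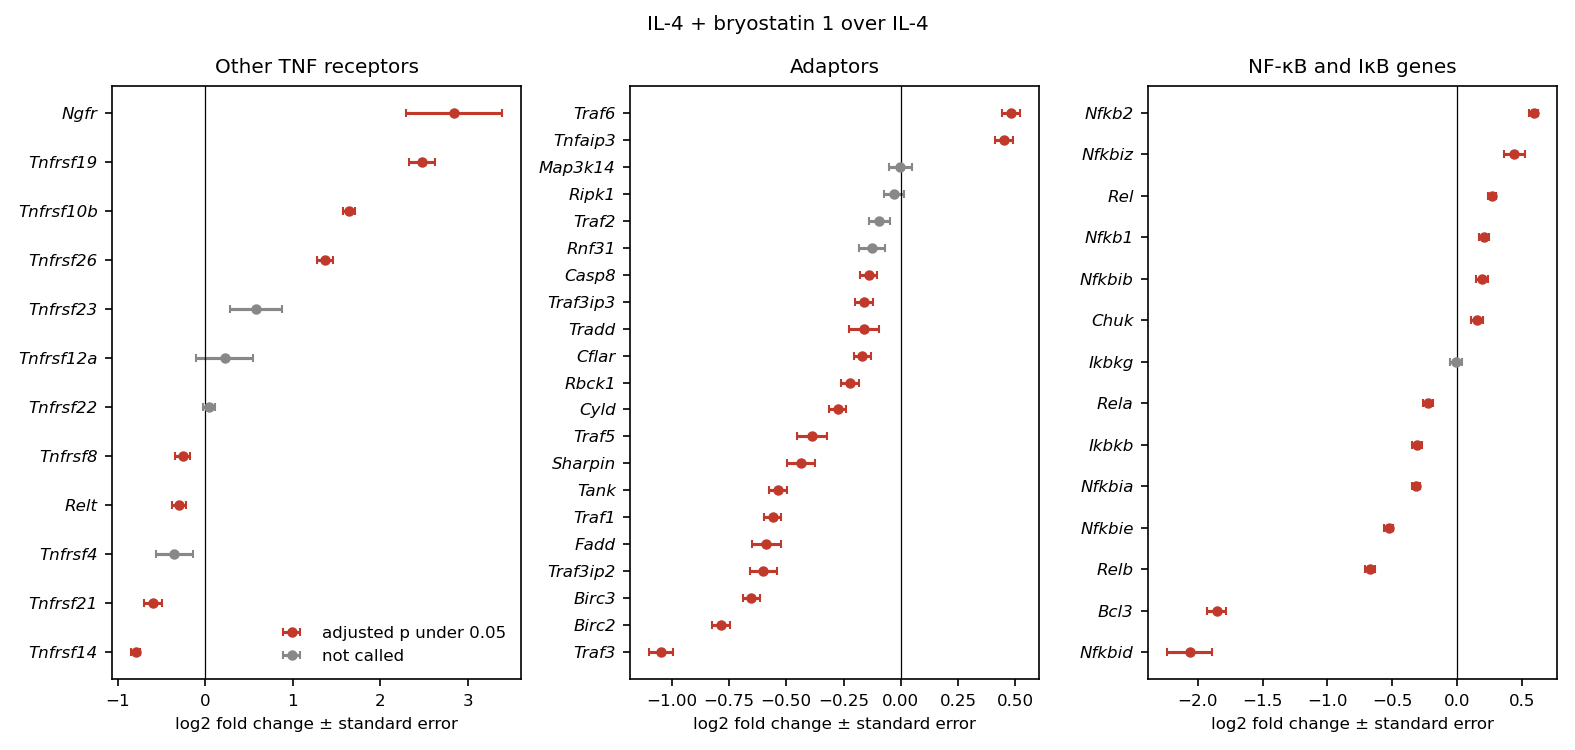
Log2 fold change of IL-4 + bryostatin 1 over IL-4, with its standard error, for the tested further TNF receptor genes, the adaptors and the NF-κB and IκB genes (red, adjusted p under 0.05; grey, not called). Of the adaptors, 15 lie below 0 and are called, with Traf3 lowest at -1.05.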

How the data were processed

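Reads were cleaned by the authors with cutadapt for adaptors and sickle for quality, aligned by Hisat2, sorted by Samtools and assigned to transcripts by featureCounts. Versions, genome build and strand setting were not stated in the sources used. Their deposited table held whole-number counts for 139023 RefSeq transcript rows in 6 samples. It also held the authors' own comparison (a log2 mean and log2 fold change, a p-value and q-value, and a rank and a call as scores), none of which was used.

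For each gene the most highly counted row was kept, because rows of a gene appear to share reads. Genes were filtered by filterByExpr (minimum count 10, minimum total 15), scaled by DEGES (TMM, exact test, TMM, 3 rounds) and tested with the quasi-likelihood test of edgeR (4.0.16, under R 4.3.3) on 4 residual degrees of freedom. The procedure was tested on simulated data with 200 changed genes. Calls were made for 50 of 66 genes changed 1.5-fold, 63 of 67 changed 2-fold, 66 of 66 changed 4-fold and 5 of 13496 unchanged genes. Far more genes were called in the real data, so the simulation does not test the scaling under changes that wide. Figures used matplotlib 3.10.9. Alternatives covered scaling, DESeq2 1.42.0, filters, thresholds, row choice, the replicate number as a block and leaving out each sample.

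All members and ligands are named, and from the other lists up to 5 called genes with the largest change and at least 5 CPM in a group. Members and lists were chosen with earlier results of these data known. Replicates differed by more than counting noise, at 2.31 to 4.85 chi-square per gene. Besides the lists given in the text, marker sums with bryostatin 1 and with IL-4 were 175 to 197 and 6.09 to 8.05 CPM for regulatory T cells (nearly all Il2ra). For NK and innate lymphoid cells they were 4.62 to 6.11 and 1.31 to 1.55 CPM. Most of these was Il7r (means 4.27 and 1.02 CPM), the only gene of that list tested. For plasma cells the sums were 547 to 563 and 529 to 556 CPM (4 markers higher and the abundant Xbp1 lower). For stroma and endothelium they were 28.5 to 32.1 and 35.0 to 38.3 CPM.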

Additional observations from a re-analysis of the deposited data

How the results depend on the processing

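All 7 tested members kept their direction and call under each of 15 alternatives, with log2 fold changes of 4.43 to 4.63 for Tnfrsf11a, 0.23 to 0.29 for Tnfrsf13b, 0.37 to 0.43 for Fas, -0.81 to -0.73 for Cd40, -0.67 to -0.54 for Tnfrsf13c, -0.47 to -0.40 for Tnfrsf1b and -0.63 to -0.52 for Tnfrsf18, and a highest adjusted p of 0.00421 for Tnfrsf18. Counts of genes moved by over 1.5 times when a log2 fold change past 1 was also asked for, which left 840 higher and 625 lower of all genes, 1 higher and 0 lower of the members, 0 lower of the further TNF receptors, 3 higher and 0 lower of the ligands, 0 higher and 1 lower of the adaptors and 0 higher and 2 lower of the NF-κB list. Leaving out 1 sample at a time gave 3712 to 3998 higher and 3517 to 3871 lower of all genes, 3 higher and 4 lower of the members each time, 4 higher and 3 to 4 lower of the further TNF receptors, 4 to 5 higher and 1 lower of the ligands, 2 higher and 14 to 16 lower of the adaptors, 5 to 6 higher and 7 lower of the NF-κB list, and a log2 difference of 0.81 to 0.90 in the ratio of Tnfrsf13b to Tnfrsf13c. Over all single list genes and alternatives, 5 genes lost a call in 17 instances, 3 gained one in 7 instances and 0 reversed. Same-numbered samples deviated together with correlations of 0.152, 0.0576 and 0.0364, against -0.100 to 0.0515 for samples of different number. These values do not settle whether the numbers pair the samples, and the main fit did not pair them. With the replicate number as a block 4255 genes were higher and 4052 lower, against 4161 and 3901 in the main fit, with 3 and 4 of the members in both. The planned log ratio of Tnfrsf1b to Tnfrsf1a could not be computed because 2 IL-4 libraries had 0 Tnfrsf1a counts. Depth limits Tnfrsf1a, Tnfrsf9 and Cd27, with at most 6 counts a library.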
